A study of Arabidopsis thaliana with 9 samples.

Results

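PR1 to PR5 are 5 pathogenesis-related genes of Arabidopsis thaliana, and their rows were taken by gene identifier from a table of 32548 genes. The members were AT2G14610 (PR1), AT3G57260 (PR2), AT3G12500 (PR3), AT3G04720 (PR4) and AT1G75040 (PR5). All 5 were in the table and passed the filter on low values, which 23207 genes passed. RNA was sequenced from whole 11-day-old seedlings, with 3 libraries of each of 3 genotypes. The al24567 seedlings carry homozygous mutations of the 5 ALFIN-like genes AL2, AL4, AL5, AL6 and AL7, which encode nuclear PHD-finger proteins that bind histone H3 trimethylated at lysine 4. The ring1a1b seedlings carry homozygous mutations of RING1A and RING1B, 2 RING-finger proteins that belong to the Polycomb machinery attaching ubiquitin to histone H2A. The Col-0 seedlings are the wild type, and no agent, pathogen or inducer is named for any group. All plants grew on Murashige and Skoog plates at 22 °C with 16 h of light and 8 h of dark. The study set each mutant against the wild type, and the mutants can also be set against each other.

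Pathogenesis-related proteins accumulate in plants under attack. PR1, PR2 and PR5 are the textbook readouts of the salicylic acid branch: salicylate acts through the coactivator NPR1 and its TGA partners, and NIMIN proteins and several WRKY factors tune the output. PR3 and PR4 are readouts of the jasmonate and ethylene branch, in which EIN3 and EIL1 activate ERF factors such as ERF1 and ORA59 that bind GCC boxes. PR1 encodes a small secreted protein of the CAP family, PR2 a beta-1,3-glucanase, PR3 a basic chitinase, PR4 a hevein-like protein, and PR5 a thaumatin-like protein. WRKY factors are known to bind the W box, TTGAC, and TGA factors the sequence TGACG.

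The stretches directly upstream of the annotated starts of PR5, PR2 and PR3 are shown because each holds a match to one of the motifs searched. They hold 250 bases each, 5′ to 3′ on the strand of the gene, in the TAIR10.1 build of RefSeq, and the only capitals are matches to 4 motifs searched on both strands: the W box core TTGAC, the TGA factor core TGACG, the GCC box GCCGCC and the G box CACGTG. PR5 is on the plus strand and its stretch lies at chr1:28177420-28177669, PR2 is on the minus strand with chr3:21189968-21190217, and PR3 is on the minus strand with chr3:3963985-3964234.
PR5: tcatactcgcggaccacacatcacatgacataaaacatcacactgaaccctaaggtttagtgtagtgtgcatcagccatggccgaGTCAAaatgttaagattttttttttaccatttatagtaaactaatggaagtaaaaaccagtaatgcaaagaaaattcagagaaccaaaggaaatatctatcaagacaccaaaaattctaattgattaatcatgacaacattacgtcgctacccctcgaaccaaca
PR2: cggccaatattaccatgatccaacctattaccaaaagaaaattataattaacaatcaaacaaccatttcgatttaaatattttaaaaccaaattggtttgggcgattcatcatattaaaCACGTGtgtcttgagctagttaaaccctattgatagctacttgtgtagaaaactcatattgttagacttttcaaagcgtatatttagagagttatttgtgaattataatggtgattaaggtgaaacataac
PR3: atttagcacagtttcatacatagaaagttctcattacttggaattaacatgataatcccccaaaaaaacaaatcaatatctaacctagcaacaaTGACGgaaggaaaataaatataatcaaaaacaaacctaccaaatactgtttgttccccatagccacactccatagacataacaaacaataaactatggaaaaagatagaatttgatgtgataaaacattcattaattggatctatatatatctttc

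PR5 held TTGAC on the opposite strand, printed as GTCAA, 165 bases upstream of its start. PR2 held CACGTG, the G box, 131 bases upstream, and PR3 held TGACG 156 bases upstream. PR4 held none of the 4 motifs in this window. TTGAC and TGACG can share bases, as in TTGACG, and did not here. Of 27438 upstream windows of the same length, 44.9% held TTGAC, 18.6% TGACG, 6.49% CACGTG and 1.87% GCCGCC, so that single matches of the short motifs are common and describe only these letters.

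Values are the deposited read counts adjusted by the authors to a common library size, called adjusted reads here. They rest on 18258434 to 22435659 reads a library, as recovered from the values, with 7.54% to 9.57% of them in the 10 top genes of a library. Fold changes are differences of log2(adjusted reads + 1) with their standard error, from a limma model of all 9 libraries, and a gene was called where its Benjamini-Hochberg adjusted p over all 23207 genes was below 0.05; on this scale the change of low genes is understated. The targeted genes were called lower in their own mutant except AL5, which stood at -0.06 ± 0.18 in al24567 (limma adjusted p = 0.844), and RING1B fell only by 0.79 ± 0.20 in ring1a1b (limma adjusted p = 0.00858). The labels do not say that the 3 libraries of a genotype came from separately grown seedlings, and the p-values may reflect only technical spread among them. In whole seedlings, fewer cells of a type and less RNA per cell cannot be told apart.

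All 5 genes rose in al24567 against Col-0 by the main test. With only these 2 genotypes fitted, 4 of 5 were called, without PR2. DESeq2 called 3 of 5, without PR2 and without PR1, for which it gave no p-value. In ring1a1b, PR1 fell steeply, PR2 and PR5 fell by smaller amounts that did not hold under several other settings, PR3 rose slightly and PR4 did not pass the test. By these calls the mutants stood on opposite sides of Col-0 for the salicylate-type genes, while both stood above it for PR3. Limma called 5 of 5 members higher in al24567, where 17.9% of all tested genes were called higher and 36.3% were called in either direction. In ring1a1b it called 3 members lower, where 7.67% of tested genes were called lower and 17.7% in either direction, and 1 member higher, as were 2331 of the 23207 tested genes. Between the mutants, all 5 members were lower in ring1a1b than in al24567, where 18.9% of tested genes were called lower and 39.0% in either direction. The libraries did not overlap for 4 members higher in al24567 than in Col-0, as for 23.2% of tested genes. For ring1a1b against Col-0 they did not overlap for 3 members lower, as for 18.3% of tested genes, and for 1 higher, as for 17.4%. Against al24567, all 5 members were lower in ring1a1b without overlap, as were 23.0% of tested genes.

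**Figure D1:**
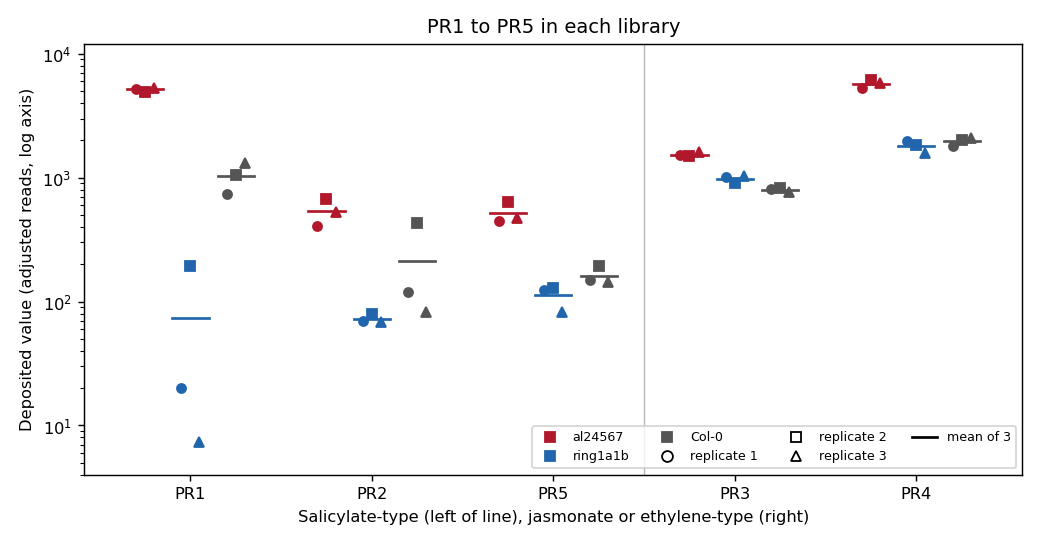
Deposited value of each gene (adjusted reads, log axis) in each library, with al24567, ring1a1b and Col-0 side by side, the replicate given by the symbol and the mean of 3 libraries by the bar. PR1 spans 7.38 to 5337 adjusted reads over the 9 libraries, and the 3 ring1a1b libraries of PR1 are the most scattered set in the plot.

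PR1 (chromosome 2, 6241640 to 6242541, minus strand, 1 exon of 902 bases) varied most. It had 5232, 4907 and 5337 adjusted reads in al24567, 20, 194 and 7.38 in ring1a1b, and 732, 1050 and 1302 in Col-0. The 3 groups did not overlap: every al24567 library was above and every ring1a1b library below every Col-0 library. The al24567 libraries lay close together, with 5159 ± 224 (SD, n = 3), whereas the highest ring1a1b library held 26.2 times the lowest. PR1 was higher in al24567 than in Col-0 by 2.36 ± 0.65 (95% interval 1.01 to 3.72, limma adjusted p = 0.00735). This error comes from a spread shared over all 9 libraries, including those of ring1a1b, where PR1 had an SD of 2.33 on the log2 scale. With only al24567 and Col-0 fitted, the change was 2.36 ± 0.18 (limma adjusted p = 0.00017). PR1 was lower in ring1a1b than in Col-0, at -4.95 ± 0.65 (95% interval -6.30 to -3.59, limma adjusted p = 1.96e-05). Replicate 2 of ring1a1b, which held 201 reads against 21 and 7 in the other libraries, sets part of this size: the change was -6.24 without it and -3.97 without replicate 3, called in both cases. The edgeR quasi-likelihood test on the recovered reads, which fits counts and not log values, gave -3.78 (edgeR adjusted p = 7.88e-08). The difference between the mutants was -7.31 ± 0.65 (limma adjusted p = 5.1e-08), and -6.10 in the edgeR test.

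PR2 (chromosome 3, 21188397 to 21189967, minus strand) had 407, 677 and 526 adjusted reads in al24567, 69.8, 79.2 and 68.3 in ring1a1b, and 120, 434 and 81.8 in Col-0. The Col-0 libraries were the scattered ones here: replicate 2 held 5.3 times the level of replicate 3 and lay within the al24567 range, so those groups overlapped. All ring1a1b libraries lay below all Col-0 libraries, but only just: the highest ring1a1b library was at 79.2 and the lowest Col-0 library at 81.8. PR2 was higher in al24567 than in Col-0 by 1.69 ± 0.37 (limma adjusted p = 0.00151). It was 2.39 without Col-0 replicate 2 and 1.20 without Col-0 replicate 3, called in both cases. Fitted on these genotypes alone, it kept its size but not its call (limma adjusted p = 0.0533). In ring1a1b PR2 was lower than in Col-0 by the main test, at -1.16 ± 0.37 (95% interval -1.94 to -0.37, limma adjusted p = 0.0384), but the value was -0.45 without Col-0 replicate 2 (limma adjusted p = 0.187). Leaving out ring1a1b replicate 1, 2 or 3 kept the size, at -1.13, -1.22 and -1.12, and lost the call (limma adjusted p = 0.0999, 0.0795 and 0.134). The difference between the mutants, at -2.84 ± 0.37, does not involve Col-0 libraries in its means and was called (limma adjusted p = 6.84e-06).

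PR5 (chromosome 1, 28177670 to 28179022, plus strand) had 446, 639 and 475 adjusted reads in al24567, 123, 129 and 82.6 in ring1a1b, and 149, 195 and 143 in Col-0. The groups did not overlap, but the highest ring1a1b library, at 129, lay near the lowest Col-0 library, at 143. PR5 was higher in al24567 than in Col-0 by 1.67 ± 0.18 (95% interval 1.30 to 2.04, limma adjusted p = 6.9e-07). In ring1a1b it stood at -0.55 ± 0.18 (95% interval -0.92 to -0.18, limma adjusted p = 0.0386), a call at the edge of the threshold that was lost when any 1 Col-0 library was left out, at -0.60 without replicate 1, -0.41 without replicate 2 and -0.63 without replicate 3 (limma adjusted p = 0.0657, 0.191 and 0.0501). It was also lost without ring1a1b replicate 3, at -0.35 (limma adjusted p = 0.223). Between the mutants PR5 differed by -2.22 ± 0.18 (limma adjusted p = 1.44e-08).

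PR3 (chromosome 3, 3962136 to 3963984, minus strand) had 1516, 1488 and 1605 adjusted reads in al24567, 1005, 906 and 1026 in ring1a1b, and 806, 824 and 764 in Col-0. The order al24567, ring1a1b, Col-0 held without overlap, and it was the only member of the 5 whose 3 ring1a1b libraries all lay above Col-0. PR3 was higher in al24567 by 0.94 ± 0.07 (limma adjusted p = 1.33e-08) and in ring1a1b by 0.29 ± 0.07 (95% interval 0.14 to 0.45, limma adjusted p = 0.00808). The ring1a1b call only just held without Col-0 replicate 3 or ring1a1b replicate 3, at 0.26 in each case (limma adjusted p = 0.0497 and 0.0498). PR3 was lower in ring1a1b than in al24567, at -0.65 ± 0.07 (limma adjusted p = 9.64e-07). The annotated gene AT3G12502 overlaps PR3, and it held at most 2 adjusted reads in any library; how reads of a shared stretch were counted is not given in the sources used here.

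PR4 (chromosome 3, 1285425 to 1286760, minus strand) had 5277, 6103 and 5824 adjusted reads in al24567, 1994, 1823 and 1593 in ring1a1b, and 1799, 2010 and 2083 in Col-0. The al24567 libraries stood far above the rest, and the ring1a1b and Col-0 libraries overlapped. PR4 was higher in al24567 than in Col-0 by 1.55 ± 0.08 (95% interval 1.37 to 1.72, limma adjusted p = 1.72e-10). In ring1a1b it stood at -0.13 ± 0.08 against Col-0, with a 95% interval of -0.30 to 0.05 (limma adjusted p = 0.354), which bounds a fall at 0.30 on the log2 scale at that confidence. Between the mutants it differed by -1.67 ± 0.08 (limma adjusted p = 3.08e-11).

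**Figure D2:**
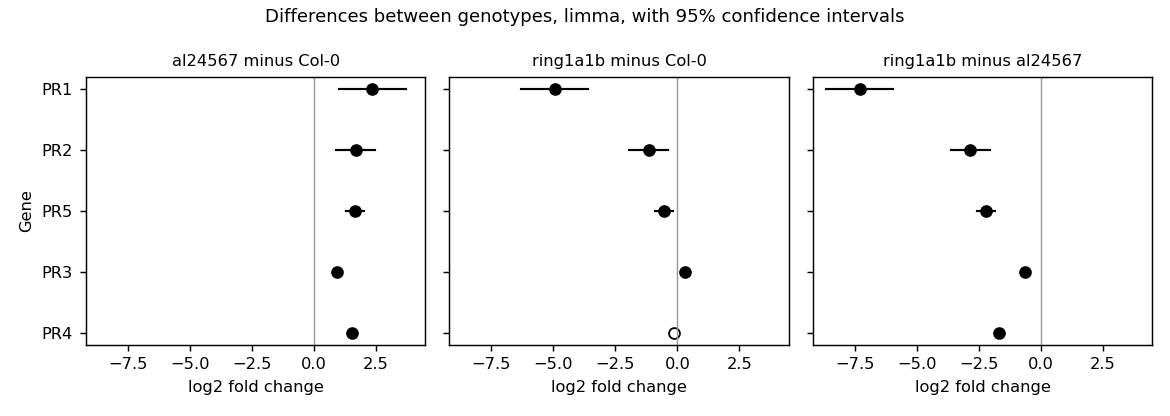
Log2 fold change of each gene in the 3 comparisons, with 95% confidence intervals from limma; filled points were called at an adjusted p below 0.05. All 5 points lie above 0 for al24567 minus Col-0 and below 0 for ring1a1b minus al24567; for ring1a1b minus Col-0 only PR3 lies above 0, and PR4 is the open point.

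Set side by side, the al24567 changes were of one sign for both branches, at 2.36 for PR1, 1.69 for PR2 and 1.67 for PR5, and 0.94 for PR3 and 1.55 for PR4. The ring1a1b changes were -4.95, -1.16 and -0.55 for PR1, PR2 and PR5, and 0.29 and -0.13 for PR3 and PR4. Both sets of changes are measured against the same 3 Col-0 libraries. Col-0 replicate 2, high for PR2, therefore enters both.

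The members also differed in how much the libraries of 1 genotype scattered. On the log2 scale, PR1 had an SD of 0.06 in al24567, 2.33 in ring1a1b and 0.42 in Col-0, where the median SD of genes at a like level was 0.10, 0.23 and 0.07 in those genotypes. PR2 had an SD of 0.37 in al24567, 0.11 in ring1a1b and 1.25 in Col-0, against like-level medians of 0.12, 0.23 and 0.12. PR5 lay at 0.28, 0.35 and 0.24 in the same order of genotypes, above the like-level medians of 0.12, 0.18 and 0.14 in each. PR3 had SDs of 0.06, 0.10 and 0.06, against like-level medians of 0.10, 0.08 and 0.07. PR4 had SDs of 0.11, 0.16 and 0.11, against like-level medians of 0.10, 0.07 and 0.06, and so lay above them in each genotype, as PR5 did. PR2 and PR5 were each highest in replicate 2 of all 3 genotypes, and PR1 was highest in replicate 2 in ring1a1b only. Without replicate 2 of every genotype, a set chosen after the data were seen, al24567 had 5 of 5 members higher, and ring1a1b had 1 lower, PR1, and 1 higher, PR3.

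Divided by exon length, the levels can be ordered between genes. In al24567 the order was PR1, PR4, PR3, PR5 and PR2 in all 3 libraries, with PR1 at 5719 ± 249 and PR4 at 5057 ± 370 adjusted reads per kb (SD, n = 3). PR1 and PR4 were nearest each other in replicate 2, at 5440 and 5382 adjusted reads per kb, and lay further apart in replicate 1, at 5801 and 4654, and in replicate 3, at 5917 and 5136. In ring1a1b PR4 led at 1590 ± 177 adjusted reads per kb, followed by PR3 at 713 ± 46.5, while PR1 was last in replicates 1 and 3 and was above PR5 and PR2 in replicate 2. PR1 at 81.6 ± 115, PR5 at 102 ± 23.1 and PR2 at 49 ± 4.01 adjusted reads per kb were therefore not in a stable order in ring1a1b. In Col-0 the order was PR4 at 1732 ± 130, PR1 at 1140 ± 316 and PR3 at 581 ± 22.3 adjusted reads per kb in every library. PR5 at 148 ± 25.7 and PR2 at 143 ± 131 changed places between Col-0 libraries.

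The salicylate-type genes made up 53%, 50.1% and 51.5% of the summed level of the 5 genes per kb in the al24567 libraries, 6.81%, 14.5% and 5.69% in the ring1a1b libraries, and 32.1%, 40.8% and 40.5% in the Col-0 libraries. The genotypes did not overlap in this share, and PR1 carries most of it in al24567 and Col-0. Within the salicylate-type set, PR1 per kb was 21.1, 11.9 and 16.6 times PR2 in al24567, 0.468, 4 and 0.177 times in ring1a1b, and 9.98, 3.97 and 26 times in Col-0. Between PR4 and PR3 the ratio per kb was steadier, at 4.21, 4.97 and 4.39 in al24567, 2.4, 2.44 and 1.88 in ring1a1b, and 2.7, 2.95 and 3.3 in Col-0.

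**Figure D3:**
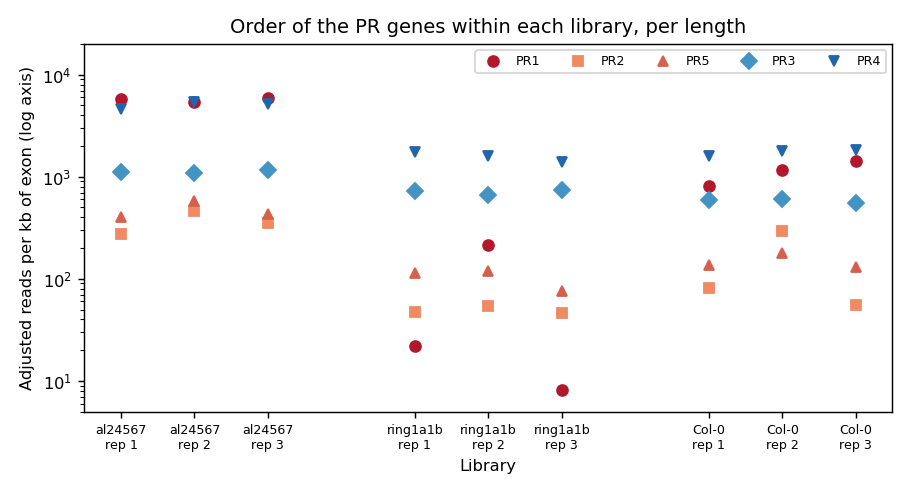
Adjusted reads per kb of exon (log axis) of the 5 genes in each library, with al24567, ring1a1b and Col-0 from left to right. PR1 is at the top in the 3 al24567 libraries and at the bottom in ring1a1b replicates 1 and 3.

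More of the known regulators of the salicylate-type genes were higher than lower in al24567, and more were lower than higher in ring1a1b. Of 24 tested regulators, 14 were higher in al24567, 1 was lower and 9 did not pass, with a median of 0.38 against -0.02 over all tested genes, of which 17.9% were called higher and 36.3% either way. In ring1a1b 1 was higher, 7 were lower and 16 did not pass, with a median of -0.26 against -0.02 over all tested genes, of which 7.67% were called lower and 17.7% either way. NPR1, the salicylate coactivator, had 793 ± 48.4 adjusted reads in al24567, 682 ± 94 in ring1a1b and 748 ± 19.6 in Col-0 (SD, n = 3 each), with changes of 0.08 ± 0.09 in al24567 (limma adjusted p = 0.512) and -0.14 ± 0.09 in ring1a1b (limma adjusted p = 0.336).

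The largest rises among these regulators in al24567 were of genes known to restrain the response. WRKY38, known as a negative regulator of basal defence, had 117, 157 and 133 adjusted reads in al24567, 14.6, 10.5 and 6.14 in ring1a1b, and 7.4, 29.2 and 10.8 in Col-0. Its change was 3.24 ± 0.41 in al24567 (limma adjusted p = 5.92e-06). NIMIN1, an NPR1-binding repressor of PR1, rose by 3.11 ± 0.48 and WRKY62, a partner of WRKY38, by 2.31 ± 0.42 (limma adjusted p = 4.3e-05 and 0.000271). NIMIN3, which also binds NPR1, was the 1 member lower, at -0.53 ± 0.17 (limma adjusted p = 0.0225), a call that ended when replicate 1 or 3 of either genotype was left out, with -0.39 without al24567 replicate 3 (limma adjusted p = 0.11).

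In ring1a1b, WRKY54, a close relative of WRKY70, had 23.4, 18.1 and 11.3 adjusted reads, against 63.6, 99.9 and 91.9 in Col-0, a change of -2.24 ± 0.26 (limma adjusted p = 4.16e-06). SARD1, an activator of salicylate synthesis, stood at 27, 47.8 and 46.8 adjusted reads in ring1a1b, against 105, 141 and 127 in Col-0, a change of -1.63 ± 0.21 (limma adjusted p = 1.39e-05). WRKY70, a node between salicylate and jasmonate signalling, had 565, 917 and 647 in ring1a1b, against 1814, 1999 and 2269 in Col-0, a change of -1.54 ± 0.13 (limma adjusted p = 6.55e-08). None of these ring1a1b libraries overlapped Col-0, as for 18.3% of tested genes lower in ring1a1b. These genes were named for their large called falls, so the lack of overlap is no separate evidence. TGA7, a TGA-type bZIP factor, was the 1 higher member, at 0.56 ± 0.10 (limma adjusted p = 0.000546). ICS1, the isochorismate synthase of salicylate synthesis, had 829 ± 28.7 adjusted reads in al24567, 423 ± 23.3 in ring1a1b and 531 ± 55.5 in Col-0, with changes of 0.65 in al24567 (limma adjusted p = 1.46e-05) and -0.32 in ring1a1b (limma adjusted p = 0.0166); it lies outside the naming rule and was picked after its values were seen.

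Of 15 tested regulators of the jasmonate and ethylene-type genes, 6 were higher in al24567, 1 was lower and 8 did not pass, with a median of 0.29, where 36.3% of all tested genes were called either way and 17.9% higher. In ring1a1b 3 were higher, 1 was lower and 11 did not pass, with a median of 0.06, where 17.7% of all tested genes were called. ORA59, an ERF activator of the jasmonate and ethylene response, had 60.1, 109 and 51.7 adjusted reads in al24567, 14.5, 31.7 and 13.3 in ring1a1b, and 16.7, 15.9 and 28.8 in Col-0. Its al24567 libraries lay above all Col-0 libraries, as for 23.2% of tested genes, with a change of 1.77 ± 0.38 (limma adjusted p = 0.00107). ERF2 rose by 0.92 ± 0.10 and CTR1, a kinase that restrains ethylene signalling, by 0.63 ± 0.08 in al24567 (limma adjusted p = 1.45e-06 and 4.97e-06). EIL1 was lower in both mutants, at -0.32 ± 0.07 in al24567 and -0.25 ± 0.07 in ring1a1b (limma adjusted p = 0.000762 and 0.0107), the second lost without Col-0 replicate 1 or ring1a1b replicate 1 (limma adjusted p = 0.0579 and 0.0505) and with libraries scaled to equal totals (limma adjusted p = 0.0506). In ring1a1b the 3 higher members were the related factors ERF104, ERF5 and ERF6, at 1.23 ± 0.15, 0.78 ± 0.13 and 0.66 ± 0.16 (limma adjusted p = 1.27e-05, 0.000308 and 0.0072); ERF6 was 0.46 without ring1a1b replicate 2 (limma adjusted p = 0.0579). EIN3, the master regulator of ethylene response, was not called in al24567, at -0.06 ± 0.06, or in ring1a1b, at 0.00 ± 0.06 (limma adjusted p = 0.485 and 0.977). MYC2, the jasmonate regulator on this list, was listed at 0 in all 9 libraries and not tested; it is a widely expressed gene, so a 0 in this table need not mean an unexpressed gene.

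The relatives of the 5 genes are read against the same shares, 36.3% of all tested genes called in al24567 and 17.7% in ring1a1b. Of 15 tested CAP genes related to PR1, 5 were higher and 5 lower in al24567, and 3 were higher and 1 lower in ring1a1b. AT4G33720 had 611, 327 and 390 adjusted reads in al24567, 407, 286 and 373 in ring1a1b, and 98.9, 103 and 143 in Col-0. It was higher in both mutants, by 1.90 ± 0.19 in al24567 and 1.62 ± 0.19 in ring1a1b (limma adjusted p = 3.97e-07 and 6.94e-06), unlike PR1. PRB1, the basic counterpart of PR1, had 3.02, 50 and 4.96 adjusted reads in al24567, 112, 13.8 and 34.7 in ring1a1b, and 61.3, 45.5 and 69.9 in Col-0. It was called lower in al24567, at -2.46 ± 0.72 (limma adjusted p = 0.0119), although replicate 2 of al24567 overlapped Col-0. This call was lost in DESeq2, at -1.58 (adjusted p = 0.296), with only these 2 genotypes fitted (limma adjusted p = 0.0662), and without Col-0 replicate 3 (limma adjusted p = 0.0504), al24567 replicate 1 (-1.76, limma adjusted p = 0.0782) or al24567 replicate 3 (-2.04, limma adjusted p = 0.0572); it was -3.59 without al24567 replicate 2. PRB1 was not called in ring1a1b, at -0.59 ± 0.72 (limma adjusted p = 0.651). AT2G19970 was also lower in al24567, at -1.56, as was AT1G50050, at -2.12 from at most 5.25 adjusted reads in either genotype, and AT4G31470 and AT1G50060 higher, at 1.50 and 0.99. AT1G50060 was 0.69 without al24567 replicate 2 (limma adjusted p = 0.094). AT2G19970 was the 1 CAP gene lower in ring1a1b, at -0.73, where AT4G25780 and AT5G66590 were higher, at 1.31 and 0.55.

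Only 6 of 14 listed beta-1,3-glucanases passed the filter, so this family is described by few genes: 2 were higher and 1 lower in al24567, and 2 were higher in ring1a1b, against 36.3% and 17.7% of all tested genes called in those mutants. BG3 rose by 2.01 ± 0.59 in al24567 (limma adjusted p = 0.0113), with 41.1, 33 and 33.4 adjusted reads against 4.24, 15.6 and 7.59 in Col-0; without Col-0 replicate 1 it was 1.62 (limma adjusted p = 0.0672). AT4G16260 had 2723 ± 123 adjusted reads in al24567, 1467 ± 169 in ring1a1b and 1128 ± 45.2 in Col-0 (SD, n = 3 each), and was higher in both mutants, by 1.27 ± 0.08 and 0.37 ± 0.08 (limma adjusted p = 8.88e-10 and 0.00255). AT2G27500 was the lower one in al24567, at -0.49, a call that ended when Col-0 replicate 2 or al24567 replicate 1 was left out (limma adjusted p = 0.0601 and 0.0588). AT4G14080, the other gene called higher in ring1a1b, held 4.86, 3.81 and 3.06 adjusted reads there and was listed at 0 in every Col-0 library, so that no fold is given. Its call was lost without ring1a1b replicate 1 (limma adjusted p = 0.0562) and in DESeq2 (DESeq2 adjusted p = 0.0875).

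Chitinases and their relatives, 14 genes beside PR3 and PR4 and all tested, were higher in al24567 in 7 cases and lower in 2, with a median of 0.76, and higher in ring1a1b in 4 cases and lower in 1, with a median of 0.17. Of all tested genes 17.9% were higher and 36.3% called either way in al24567, and 17.7% were called in ring1a1b. AT2G43620 had 1147, 1455 and 1255 adjusted reads in al24567, 659, 477 and 344 in ring1a1b, and 183, 189 and 147 in Col-0. It was the largest riser of the list in both mutants, at 2.89 ± 0.17 in al24567 and 1.46 ± 0.17 in ring1a1b (limma adjusted p = 2.93e-10 and 3.69e-06). CHIA and AT2G43570 rose by 1.67 ± 0.15 and 1.63 ± 0.16 in al24567. AT3G47540 was lower in al24567, at -0.45 ± 0.16, and higher in ring1a1b, at 1.39 ± 0.16 (limma adjusted p = 0.0351 and 4.96e-06). CTL1, a chitinase-like gene of cell wall formation, was lower by little in al24567, at -0.22. These al24567 calls were lost without any 1 of several libraries: for AT3G47540 without Col-0 replicate 2 or 3 or al24567 replicate 1 or 2, at -0.45 to -0.27, and for CTL1 without any Col-0 library or al24567 replicate 1 or 2, at -0.25 to -0.15. The AT3G47540 call was also lost in DESeq2 with all 9 libraries, at -0.41 (DESeq2 adjusted p = 0.0537). AT1G02360 was higher in ring1a1b at 0.55 and AT2G43590 lower at -0.79.

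Of 19 tested thaumatin-like genes, 5 were higher and 1 lower in al24567, and 3 were higher and 2 lower in ring1a1b. These counts are near the share of all tested genes called, 36.3% in al24567 and 17.7% in ring1a1b, and show nothing about the family. TLP-3 rose by 1.76 ± 0.29 in al24567 (limma adjusted p = 9.78e-05), with 85.2, 72.5 and 117 adjusted reads against 35.2, 21.2 and 22.9 in Col-0, and stood at 0.02 ± 0.29 in ring1a1b (limma adjusted p = 0.984). AT4G24180 and AT4G36010 rose by 1.02 and 0.92 in al24567, where AT5G24620 was lower at -0.39. AT4G24180 was 0.72 without Col-0 replicate 1 and 0.93 without al24567 replicate 2, not called in either case (limma adjusted p = 0.113 and 0.0668). In ring1a1b AT1G19320 rose by 3.31 ± 0.63 (limma adjusted p = 0.00094), with 20.2, 50.9 and 24.5 adjusted reads against 4.14, 0.0367 and 4.38 in Col-0. AT5G02140 and AT2G28790 were higher there at 1.30 and 0.81, and AT4G36000 and AT5G40020 lower at -1.98 and -0.70. The calls of AT5G02140 (without any library but Col-0 replicate 2, at 1.19 to 1.39), AT4G36000 (without Col-0 replicate 1 or 2 or ring1a1b replicate 3, at -1.84 to -1.23) and AT5G40020 (without Col-0 or ring1a1b replicate 1 or 3, at -0.70 to -0.64) were lost. With all 9 libraries, AT5G02140 and AT4G36000 also lost their calls in edgeR (edgeR adjusted p = 0.0523 and 0.0672) and in DESeq2 (DESeq2 adjusted p = 0.0698 and 0.0716). The same held with a pseudocount of 0.1 (limma adjusted p = 0.0563 and 0.0627).

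**Figure D4:**
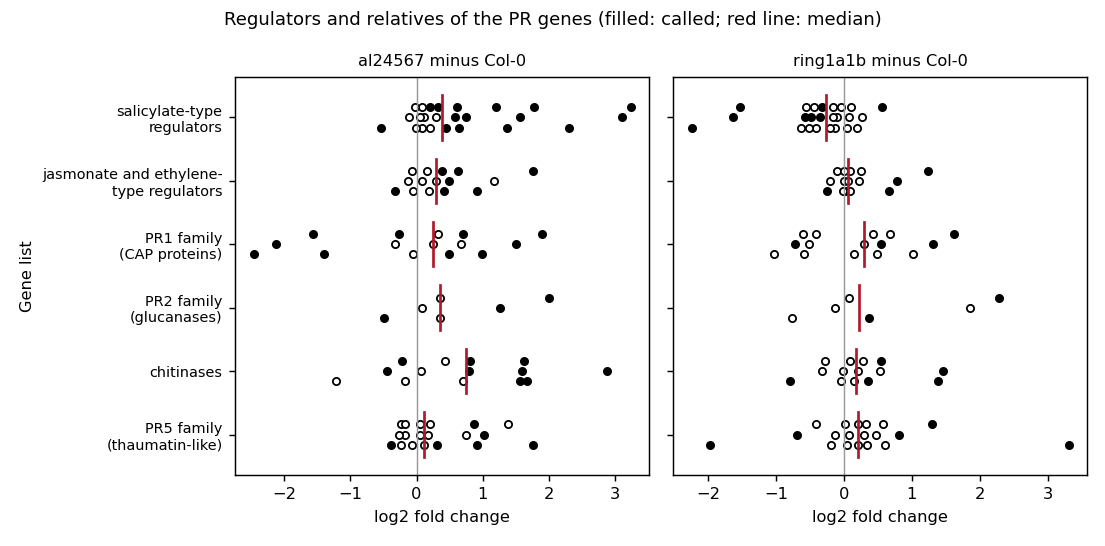
Log2 fold change of each tested gene of 6 lists, in al24567 minus Col-0 and in ring1a1b minus Col-0; filled points were called by limma at an adjusted p below 0.05 and the red line is the median of the list. The median of the salicylate-type regulators lies at 0.38 in al24567 and at -0.26 in ring1a1b.

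By chromosomal position, the 3 nearest genes of the table on each side of each member made 30 genes, of which 21 were tested; this set was chosen after the data were seen. In al24567 6 of them were higher, 4 lower and 11 not called, and in ring1a1b 1 was lower and 20 were not called, against 36.3% and 17.7% of all tested genes called in those mutants. The lower one in ring1a1b was LURP1, a gene known for its part in defence against a downy mildew, 25708 bases from PR1. LURP1 had 5428, 5613 and 5466 adjusted reads in al24567, 196, 439 and 104 in ring1a1b, and 871, 1073 and 1104 in Col-0. Its changes were 2.44 ± 0.29 in al24567 and -2.28 ± 0.29 in ring1a1b (limma adjusted p = 2.7e-06 and 1.59e-05). Its groups did not overlap, as for 23.2% of tested genes higher in al24567 and 18.3% lower in ring1a1b. LURP1 is described here for its call, so the lack of overlap is no separate evidence. PRB1 lies between the pair, 15413 bases from PR1. TLP-3 lies 2214 bases from PR5, and BG3 lies 5253 bases from PR2.

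The genes with the nearest pattern were found over the 9 libraries among 19900 genes with a mean of at least 10 adjusted reads, as the root mean square difference of the log2 values relative to each gene's own Col-0 mean. Because the search used these same libraries, high or low libraries shared with a neighbour follow partly from the selection. This difference is not scaled, so it grows with the size of a gene's changes and scatter. It therefore does not rank the members by how distinct their patterns are. The nearest to PR1, the plant cadmium resistance gene PCR1, was 1.15 away. PCR1 held 1814, 1684 and 1916 adjusted reads in al24567, 41.5, 118 and 16.5 in ring1a1b, and 219, 969 and 417 in Col-0, and shared with PR1 the highest ring1a1b value in replicate 2. The transporter gene DTX1 and AT3G28510 followed at 1.50 and 1.54. For PR2 the nearest were RLP41, PHT3;2 and MSRB8 at 0.42, 0.44 and 0.46, and for PR5, AT1G51890, AT2G25510 and AT2G38870 at 0.18, 0.21 and 0.22. RLP41 shared with PR2 the high Col-0 replicate 2, with 91.9, 254 and 113 adjusted reads in Col-0. For PR3 the nearest were PDE345, AT3G45620 and AT4G32920 at 0.07, 0.08 and 0.09, and for PR4 AT1G19960, XGD1 and AT3G51660 at 0.07, 0.12 and 0.14.

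Markers of tissues and stages were read beside these results. The green tissue markers summed to 434647 to 577178 adjusted reads in al24567, 494740 to 563101 in ring1a1b and 534279 to 613710 in Col-0, and none of the 4 was called in either mutant against Col-0. The root markers summed to 3112 to 3440 in al24567, 2161 to 2869 in ring1a1b and 2014 to 2183 in Col-0, with 4 of 5 called higher and 1 lower in al24567 and 1 of 5 higher in ring1a1b; of all 23207 tested genes, 17.9% were higher in al24567 and 2331 genes in ring1a1b. The seed and embryo markers summed to 5.95 to 44.1 in al24567, 614 to 3174 in ring1a1b and 3.15 to 6.29 in Col-0, with 4 of 5 higher in ring1a1b and 1 of 5 in al24567; CRU2 was listed at 0 in al24567, and CRC, OLEO1 and OLEO2 were listed at 0 in Col-0. Of the senescent leaf markers SAG12 was listed at 0 in all libraries, and SAG13, which salicylate and senescence are both known to raise, held 1540 to 2132 adjusted reads in al24567, 60.2 to 99.4 in ring1a1b and 173 to 235 in Col-0, with changes of 3.20 and -1.38. The part of any of these markers in the PR changes was not tested.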

How the data were processed

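RNA-seq of 9 seedling libraries was deposited by the authors as 1 table of signal values per gene. Per the submitters' processing notes, bcl2fastq, HISAT2, edgeR and the build TAIR10 were used, without versions or roles; the counting tool, annotation and strandedness are not given in the sources used here. The labels call the molecule genomic DNA, though their protocol extracts total RNA. From the values, the deposited signal is read counts that edgeR adjusted to a common library size (quantile-to-quantile pseudo-counts), which no label states. Inverting this adjustment gave whole reads for 100% of values (tolerance 0.01 reads or a relative 1e-05). All 32548 identifiers matched the TAIR10.1 RefSeq annotation, from which names, lengths and coordinates were taken.

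limma-trend (limma 3.58.1, R 4.3.3) was fitted to log2(value + 1) of 23207 genes, those that reached a value of 1 in no fewer than 3 libraries, with 1 mean per genotype and 6 residual degrees of freedom. Scripts were tested on simulated data. The settings varied were the filter (none, or 5 CPM in 3 libraries), the pseudocount (0.1), scaling to equal totals, a fit of only the 2 genotypes compared, a replicate block, edgeR 4.0.16 and DESeq2 1.42.0 on recovered reads, and leaving each library out. The members, lists and tests were chosen with earlier results of these data known. From each list the text names, per mutant, up to 3 called genes higher and 3 lower with the largest change, plus NPR1, EIN3 and PRB1, and the 3 nearest patterns of each PR gene. The upstream stretch of PR1 is not reported here.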

Additional observations from a re-analysis of the deposited data

How the results depend on the processing

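Of the values for PR1 to PR5 and the counts of called genes, 245 were kept under an alternative, 21 lost the threshold, 1 count moved and 0 reversed. A value was kept if it held its direction and side of the threshold. A count of called genes was kept if it stayed within a set factor of the main count. The 8432 genes called in al24567 minus Col-0 thus count as kept at 6539, without replicate 2 of every genotype. PR2 in al24567 minus Col-0 was 1.69 with only the 2 genotypes compared (limma adjusted p = 0.0533) and 1.35 in DESeq2 (adjusted p = 0.0742). PR2 in ring1a1b minus Col-0 was -1.16 with a pseudocount of 0.1, with no filter and with only the 2 genotypes compared (limma adjusted p = 0.0615, 0.0606 and 0.0771), -1.10 with equal totals (limma adjusted p = 0.0542), -1.54 in DESeq2 (adjusted p = 0.0689), -0.52 without replicate 2 of every genotype (limma adjusted p = 0.173) and -1.65 to -0.45 with each library left out. PR5 in ring1a1b minus Col-0 was -0.55 with a pseudocount of 0.1, with no filter and with only the 2 genotypes compared (limma adjusted p = 0.0514, 0.0524 and 0.0594), -0.49 with equal totals (limma adjusted p = 0.0826), -0.53 without replicate 2 of every genotype (limma adjusted p = 0.112) and -0.66 to -0.35 with each library left out. In the edgeR test PR2 and PR5 kept their ring1a1b calls, at -1.52 and -0.52 (edgeR adjusted p = 0.00544 and 0.0395). DESeq2 gave PR1 no p-value in any comparison, so the tally above leaves out PR1 in DESeq2. The 4111 genes called in ring1a1b minus Col-0 became 2282 without replicate 2 of every genotype, which leaves 6 libraries. The causes of the other lost calls were not tested.

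For the other named genes and the lists of nearest patterns together, 733 entries were kept, 64 lost a call and 7 reversed. A gene's value was kept if it held its direction and stayed called or stayed not called. A list of nearest patterns was kept if most of its genes stayed. Of the reversed, PRB1 in ring1a1b was 0.11 without ring1a1b replicate 2 and ranged from -1.36 to 0.11 with each library left out. EIN3 in ring1a1b, at 0.00, was 0.05 with equal totals, 0.01 in edgeR and in DESeq2, and -0.03 to 0.04 with each library left out. Neither gene was called. Equal totals moved the median of all genes in ring1a1b minus al24567 to 0.117, against 0.019.

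Same-numbered libraries deviated together little across genes (r from -0.017 to 0.038 over 9 pairs of libraries, against -0.032 to 0.016 in other pairs). The main fit did not take the numbers as pairs. Same-numbered ring1a1b and Col-0 libraries stood at 0.028, 0.038 and 0.021, above every other pair of these genotypes, at -0.032 to 0.007. PR2 and PR5 were also highest in replicate 2 of all 3 genotypes, so a pairing is not excluded. With the replicate block no call of PR1 to PR5 changed. The ring1a1b falls of PR2 and PR5 had lower p-values with it (limma adjusted p = 0.00741 and 0.00948) than without it (limma adjusted p = 0.0384 and 0.0386). The block called 8574 genes (8432 without it) between al24567 and Col-0, 4305 (4111 without it) between ring1a1b and Col-0, and 9176 (9040 without it) between the mutants. The levels of PR1 in ring1a1b rest on few reads in 2 of 3 libraries, which limits the precision of its fold.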
